A study of Mus musculus with 24 samples.

Results

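RNA of whole lungs of *Scnn1b*-Tg mice and wild-type (WT) mice aged 42 days was compared here, on 3 arrays per genotype out of 24 whole-lung arrays that also cover postnatal day (PND) 0, 3 and 10. The 6 arrays are those whose sample titles give either genotype at PND 42, and their genes are the array rows annotated with exactly 1 gene symbol. *Scnn1b*-Tg mice carry a transgene for the β subunit of the epithelial sodium channel that is driven in airway club cells by the promoter of *Scgb1a1*. WT mice were littermates without it, and both genotypes were male mice of a congenic C57BL/6N background kept under specific pathogen-free conditions. Tissue came from the left lobe. RNA of 3 mice was pooled per array according to the methods. In the labels, however, an array usually carries 2 animal numbers, and that of *Scnn1b*-Tg replicate 3 carries 1. The number of arrays therefore limits the precision of every value. SEs and p values rest on the spread between arrays within a group, estimated over all 24 arrays and not over the 6 alone.

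The epithelial sodium channel takes up sodium from the liquid that covers airway cells, and water follows. Too much uptake dries this layer, so that mucus sticks to the airway wall and is cleared poorly. Mice with the β subunit transgene are known for mucus plugs, goblet cells in the airway lining and a lung rich in enlarged macrophages in adult life. Alternative activation is the state that macrophages take under the type 2 cytokines interleukin 4 and interleukin 13, while classical activation follows interferon γ and bacterial products.

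Levels are given on the log2 scale of the array, on which a difference of 1 is a 2-fold change. A gene was called when its Benjamini-Hochberg adjusted p from limma was at most 0.05 and its change at least 2-fold, and only called genes are said to rise or fall. Of 21,789 probe sets with 1 gene symbol (19,938 genes), 74 were called, which is 0.34% of those tested. They were 71 probe sets higher in *Scnn1b*-Tg lungs (0.326%, 70 genes) and 3 lower (0.0138%, 3 genes). The difference over all probe sets had a median of 0.00 log2 and an interquartile range from -0.10 to 0.12. Among the 71 higher probe sets the median difference was 1.55, with 22 at 4-fold or more, 8 at 8-fold or more and 4 at 16-fold or more. In all 74 the *Scnn1b*-Tg and WT arrays did not overlap, as was true of 10.7% of all probe sets (6.67% higher in *Scnn1b*-Tg). WT levels of the 71 were below 5 in 18, from 5 to 8 in 41 and at 8 or above in 12. For 1,354 probe sets the unadjusted p was under 0.05 with a higher level in *Scnn1b*-Tg, and for 885 with a lower one. A whole lung holds many cell types, so that more cells of a type and more RNA per cell cannot be told apart.

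**Figure D1:**
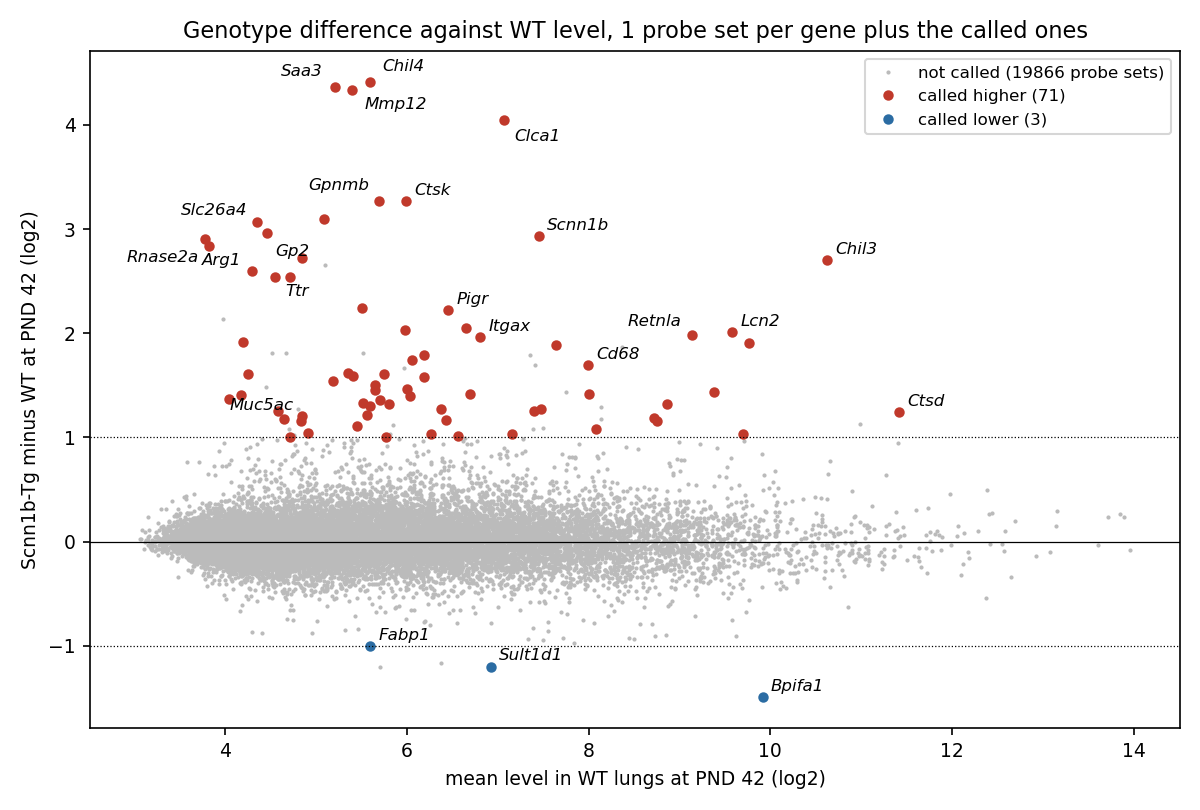
Difference between the genotypes at PND 42 (vertical axis, log2, *Scnn1b*-Tg minus WT) against the mean WT level (horizontal axis, log2), with 1 point per gene (its brightest probe set) and the called probe sets in red (higher, 71) and blue (lower, 3). Dotted lines mark 2-fold. *Chil4*, *Saa3*, *Mmp12* and *Clca1* lie highest, between 4.05 and 4.42, and *Bpifa1* lies lowest at -1.49.

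The 6 arrays were not equally alike. Over all tested probe sets the largest distance lay between *Scnn1b*-Tg replicates 1 and 3, at 0.46 log2 (root mean square), and the other pairs lay between 0.28 and 0.44. *Scnn1b*-Tg replicate 1 lay nearer to WT replicate 2 (0.30) than to *Scnn1b*-Tg replicate 2 (0.35) or 3, so that the arrays did not group by genotype. Small nucleolar RNAs, which are short and sensitive to how RNA is purified, differed among arrays of both genotypes: their median over 56 probe sets was 5.57, 5.09 and 5.83 in WT and 5.22, 5.54 and 6.59 in *Scnn1b*-Tg. The medians over all tested probe sets stayed between 5.08 and 5.14. The part of this spread in the results below was not tested. Many counts and calls that changed when a single array was left out are given with and without it, but not all of them, so that a count given alone need not be stable.

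The transgene was examined first. *Scnn1b*, the gene of the β subunit, had levels of 7.75, 7.10 and 7.50 in the WT arrays and 10.28, 10.37 and 10.50 in the *Scnn1b*-Tg arrays, a difference of 2.93 (SE 0.26, adjusted p = 4.85e-07) or 7.64-fold. *Ttr*, a piece of which is in the transgenic construct, was at 4.70, 4.42 and 4.53 in WT and at 6.89, 7.15 and 7.24 in *Scnn1b*-Tg (difference 2.54, SE 0.31, adjusted p = 4e-05). Both genes placed every array with its label. The *Scnn1b*-Tg arrays lay close together for *Scnn1b* (SD 0.11) although they differed widely for many genes below. The partner subunits did not pass the test: *Scnn1a* differed by -0.19 (adjusted p = 0.862) and *Scnn1g* by 0.16 (adjusted p = 0.821). *Scgb1a1*, the club cell secretory protein whose promoter drives the transgene, read 14.11, 13.96 and 13.82 in WT and 13.82, 13.96 and 13.88 in *Scnn1b*-Tg, overlapping groups with a difference of -0.08 (adjusted p = 0.968). *Sgk1*, a kinase that keeps the channel at the cell surface, differed by 0.64 and did not pass (adjusted p = 0.133). Of 12 listed genes of the channel, its regulators and the transgene, only *Scnn1b* and *Ttr* were called.

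A list of genes of mucus and of goblet cells, the mucus-secreting cells of the airway lining, held part of the rise. Of 26 measured genes 5 were called higher and 0 lower, with a list median of 0.29 beside -0.00 over all genes. The 5 were *Clca1*, *Muc5ac*, *Muc4*, *Gp2* and *Pigr*. The paper assigns *Clca1* (as *Clca3*) and *Muc5ac* to the mucus cell response, but not *Gp2* or *Pigr*, which it describes as receptors of mucosal surfaces. Of the 26, 11 did not exceed 5 on any array compared here. By the brightest probe set of each gene, 0.346% of all genes were called higher, 0.015% lower and 0.361% either way. The lists here and below were written with earlier results of these data known, so that their counts of called members only describe. *Clca1*, a secreted protein of goblet cells, rose most: WT arrays read 7.30, 6.72 and 7.18 and *Scnn1b*-Tg arrays 11.22, 10.76 and 11.35. Its 4.05 log2 (SE 0.22, adjusted p = 2.6e-10), or 16.5-fold, stood on tight groups, with SDs of 0.30 and 0.31. *Gp2*, a membrane glycoprotein that binds bacteria, went from 4.82, 4.33 and 4.21 to 7.0, 7.48 and 7.78 (difference 2.97, SE 0.35, adjusted p = 3.34e-05). *Pigr* encodes the receptor that carries immunoglobulin A across the epithelium. It read 6.64, 6.35 and 6.37 in WT and 8.55, 9.07 and 8.41 in *Scnn1b*-Tg, a rise of 2.22 (SE 0.25, adjusted p = 1.46e-05).

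Of the mucins themselves, the membrane-bound *Muc4* and the secreted *Muc5ac* were called, by smaller amounts. *Muc5ac* stood at 4.83, 5.05 and 4.65 against 6.05, 5.59 and 6.51, with the lowest *Scnn1b*-Tg array in replicate 2, the array that was highest for most called genes. Its difference was 1.20 (SE 0.20, adjusted p = 0.00204), and without *Scnn1b*-Tg replicate 3 it came to 0.97, under 2-fold. *Muc4* rose by 1.21 (SE 0.25, adjusted p = 0.0155), a call lost without any of 4 arrays (highest adjusted p 0.101, without WT replicate 3). *Muc5b*, the secreted mucin of the normal airway, read 8.11, 7.58 and 7.56 in WT and 8.54, 8.95 and 10.07 in *Scnn1b*-Tg. The groups did not overlap, but the difference of 1.44 did not pass (SE 0.37, adjusted p = 0.0686). *Agr2*, an endoplasmic reticulum protein needed to fold mucins, differed by 0.80 (SE 0.11, adjusted p = 0.00033), significant but under 2-fold. *Spdef*, a transcription factor of goblet cells, overlapped between groups with 0.06 (adjusted p = 0.936). Without *Scnn1b*-Tg replicate 3 the number of called list members was 3 rather than 5.

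Transporters of the airway surface were called alongside. *Slc26a4*, the chloride and bicarbonate exchanger pendrin, had WT levels of 4.41, 4.31 and 4.33, near the floor of the array, and *Scnn1b*-Tg levels of 7.10, 8.14 and 7.04. The rise of 3.07 (SE 0.25, adjusted p = 1.18e-07) was 8.41-fold. The amino acid transporters *Slc6a20a* and *Slc7a2*, the latter a carrier of arginine, rose by 1.18 and 1.17. *Slc7a2* lost its call without any of 3 arrays (highest adjusted p 0.124, without *Scnn1b*-Tg replicate 2), and *Slc6a20a* fell under 2-fold without that array. *Kcnn4*, a calcium-activated potassium channel, differed by 0.61 (adjusted p = 0.00159). In all, 4 of 28 genes of ion and water transport were called higher, *Clca1* counted among them, and 0 lower, and the list median was 0.13. Without *Scnn1b*-Tg replicate 2 there were 2.

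**Figure D2:**
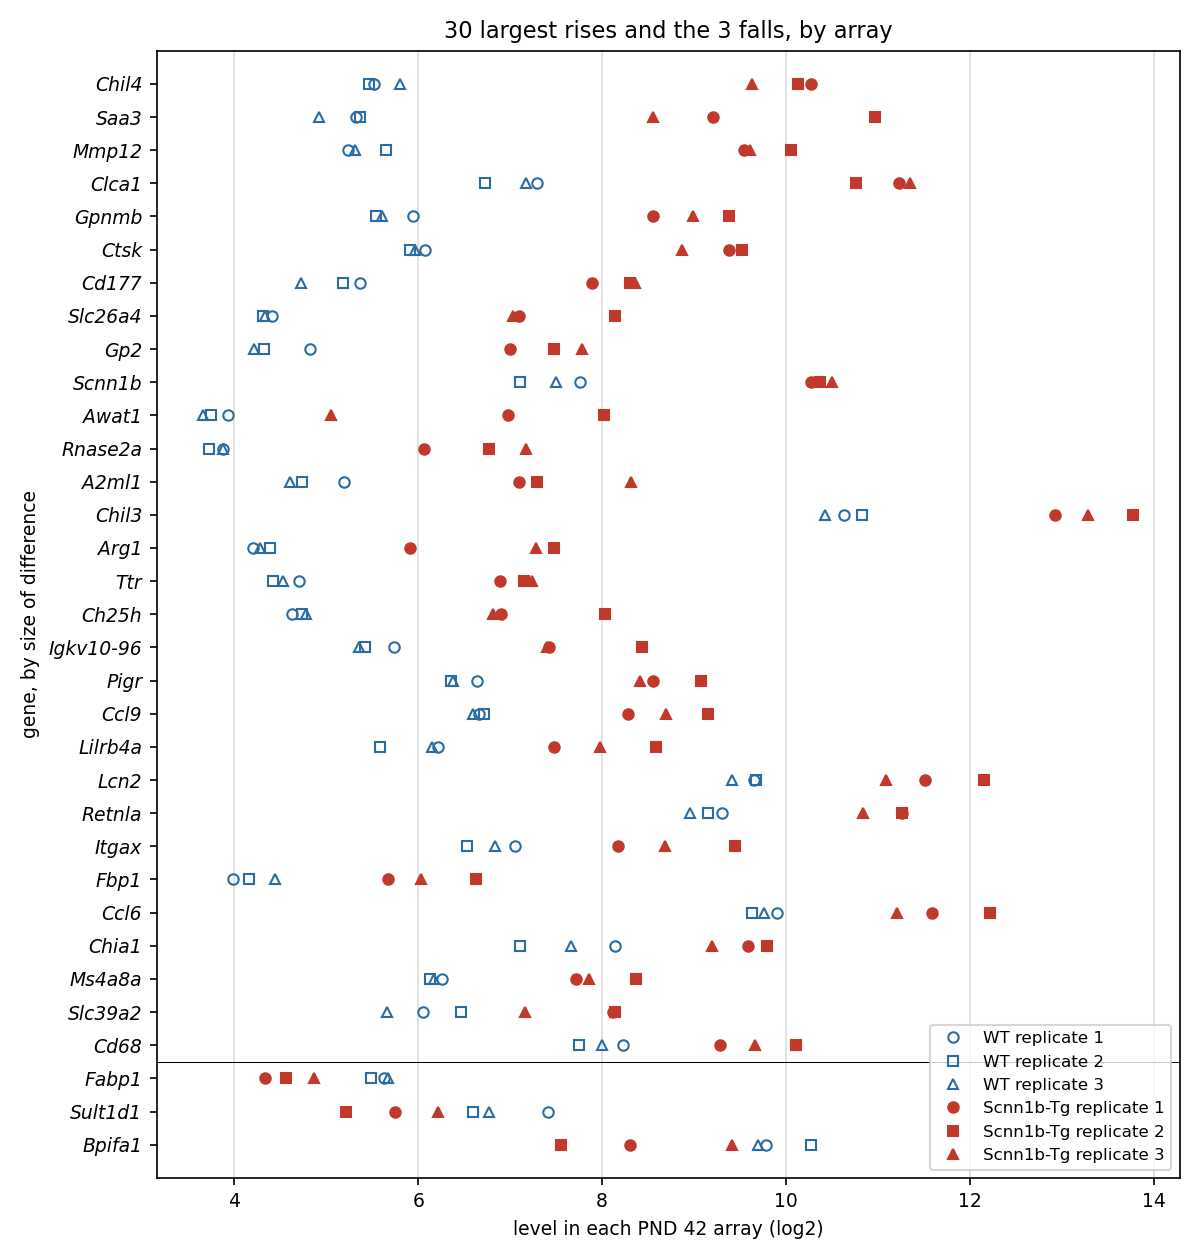
Level of each PND 42 array (horizontal axis, log2) for the 30 genes with the largest rise and the 3 genes that fell (vertical axis, ordered by difference), WT in open blue and *Scnn1b*-Tg in filled red symbols with 1 shape per replicate number. In every row the red and blue symbols do not overlap, and *Awat1*, *Saa3* and *Bpifa1* show the widest spread of *Scnn1b*-Tg arrays.

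Chitinases and chitinase-like proteins bind or cleave chitin, and the mouse lung makes several of them under type 2 cytokines. *Chil4* had the largest difference of all called genes: 5.51, 5.46 and 5.81 in WT and 10.27, 10.13 and 9.63 in *Scnn1b*-Tg, 4.42 log2 (SE 0.32, adjusted p = 1.84e-08) or 21.4-fold. *Chil3*, also known as Ym1, read 10.63, 10.82 and 10.42 in WT and 12.93, 13.78 and 13.28 in *Scnn1b*-Tg, a rise of 2.70 (SE 0.37, adjusted p = 0.000223). *Chia1*, the acidic mammalian chitinase, which has enzyme activity, moved from 8.14, 7.11 and 7.66 to 9.59, 9.80 and 9.19 (difference 1.89, SE 0.29, adjusted p = 0.000807). *Chia1*, *Chil3* and *Chil4* are direct neighbours on chromosome 3 in the reference annotation, with 0 protein-coding genes between each and the next. *Chil3* and *Chil4* are close copies, and probes for either may read the other, so that their values may not be fully separate. The probe sequences were not compared. *Chil1*, which lies elsewhere, differed by 1.13 and did not pass (adjusted p = 0.092). The family gave 3 called genes of 9 measured, unchanged at 3 without any single PND 42 array.

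Genes of alternative activation held the largest share of calls among the lists of immune cells and their states: 10 of 30 measured rose, 0 fell and 28 differed upward, with a median of 0.69. Among the 10 were *Chil3* and *Chil4*, already counted in the chitinase family and perhaps not fully separate. Without *Scnn1b*-Tg replicate 2 the count was 6, and the median stayed between 0.59 and 0.80 whichever array was left out. *Arg1*, the arginase that turns arginine into ornithine, read 4.20, 4.39 and 4.28 in WT and 5.91, 7.47 and 7.27 in *Scnn1b*-Tg. Replicate 1 lay well below the other *Scnn1b*-Tg arrays, yet above every WT array, and the rise was 2.60 (SE 0.42, adjusted p = 0.00166). *Retnla*, the secreted protein also called Fizz1, was already high in WT at 9.31, 9.15 and 8.95 and reached 11.26, 11.27 and 10.84. It rose by 1.99 (SE 0.42, adjusted p = 0.0187), but without any of 3 arrays it lost the call (highest adjusted p 0.0915, without *Scnn1b*-Tg replicate 2). This SE also holds the spread at PND 0, where the SD was 0.98 in WT and 1.02 in *Scnn1b*-Tg, and with the 6 PND 42 arrays alone the call was kept. *Retnla* is also made by club cells, and stands in that list too.

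Among the others, *Ch25h*, the enzyme that makes the oxysterol 25-hydroxycholesterol, went from 4.63, 4.73 and 4.78 to 6.90, 8.03 and 6.81 (difference 2.54, SE 0.25, adjusted p = 2.73e-06). The lectin receptors *Mgl2* and *Mrc1*, both marks of alternatively activated macrophages, rose by 1.46 (SE 0.17, adjusted p = 2.6e-05) and 1.27 (SE 0.21, adjusted p = 0.00197). *Ccl24*, which attracts eosinophils, was most uneven: 4.23, 4.13 and 4.16 in WT against 4.76, 5.43 and 6.55. Its 1.41 (SE 0.31, adjusted p = 0.0263) dropped to 0.93 without *Scnn1b*-Tg replicate 3, and the call was lost without any of 5 arrays (highest adjusted p 0.108). Fibronectin, *Fn1*, rose by 1.19 and the β-glucan receptor *Clec7a* by 1.03, with calls lost without any of 3 arrays (highest adjusted p 0.0886) and 5 arrays (highest adjusted p 0.24). *Clec10a*, the paralog of *Mgl2*, and *Pdcd1lg2*, a ligand of PD-1, differed by 0.78 (adjusted p = 0.000454) and 0.87 (adjusted p = 0.0016), both under 2-fold.

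In the list of classical activation 0 of 24 measured genes were called either way, with a median of 0.05 and 13 genes above 0. Over all genes 0.361% were called, so that a count of 0 says little about a list of this size. Of the 24, 12 did not exceed 5 on any PND 42 array, *Nos2*, *Tnf* and *Il6* among them. *Il1b* ranged from 5.29 to 5.76 in WT and from 5.29 to 6.62 in *Scnn1b*-Tg, overlapping with a difference of 0.47 (adjusted p = 0.881). *Ptgs2*, the inducible cyclooxygenase, differed by -0.53 (adjusted p = 0.39). The difference between the lists of classical and alternative activation was not tested.

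Of 33 measured markers of alveolar and foamy macrophages 5 were called higher and 0 lower, 30 differed upward, and the median was 0.50. The count was between 4 and 8 whichever array was left out, with 8 without *Scnn1b*-Tg replicate 1. *Itgax*, the integrin CD11c of lung macrophages and dendritic cells, went from 7.05, 6.53 and 6.83 to 8.18, 9.45 and 8.69 (difference 1.96, SE 0.29, adjusted p = 0.000516). *Fbp1*, a gluconeogenic enzyme, read 3.98, 4.16 and 4.44 in WT and 5.67, 6.62 and 6.03 in *Scnn1b*-Tg, and rose by 1.91 (SE 0.20, adjusted p = 8.67e-06). *Ms4a8a*, a membrane protein of alternatively activated macrophages, rose by 1.79 (SE 0.23, adjusted p = 8.19e-05). *Tm4sf19*, a tetraspanin-like membrane protein, rose by 1.61 (SE 0.14, adjusted p = 5.84e-07). Its SD at PND 42 was 0.12 in WT and 0.47 in *Scnn1b*-Tg, so that the small SE owes to the other ages. *Olr1*, a receptor for oxidized low-density lipoprotein, rose by 1.55 (adjusted p = 0.0134). It reached 7.57 in *Scnn1b*-Tg replicate 2 but 6.31 in the other arrays, and without any of 3 arrays it lost its call (highest adjusted p 0.107).

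Several usual macrophage markers did not pass. *Marco*, a scavenger receptor, was at 4.71, 4.95 and 4.75 in WT and 5.80, 7.04 and 5.39 in *Scnn1b*-Tg, no overlap but a wide spread, and its 1.27 had an adjusted p of 0.0695. *Siglecf*, a lectin of alveolar macrophages and eosinophils, differed by -0.24 (adjusted p = 0.774) and *Adgre1*, the F4/80 antigen, by 0.52 (adjusted p = 0.352), both with overlapping groups. *Trem2* (0.84, adjusted p = 0.0105) and the lipid droplet protein *Plin2* (0.79, adjusted p = 0.0105) passed the p threshold under 2-fold.

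*Mmp12*, the elastase of macrophages, was raised to a like level on all 3 arrays. WT arrays read 5.24, 5.65 and 5.31 and *Scnn1b*-Tg arrays 9.54, 10.05 and 9.61, which gave 4.34 log2 (SE 0.28, adjusted p = 3.47e-09) or 20.2-fold. Besides it only *Mmp19* was called among 22 matrix metalloproteinases and their inhibitors (1.46, SE 0.26, adjusted p = 0.00461), and without *Scnn1b*-Tg replicate 2 it lost its call (adjusted p 0.0546). The list median was 0.00 with 11 members upward. *Timp1*, an inhibitor, differed by 0.97 (adjusted p = 0.194) and *Mmp14* by 0.53 (adjusted p = 0.0755).

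Genes of the lysosome, the acid compartment where cells digest what they take up, gave 7 called genes of 51 measured, 0 lower, with 46 upward and a median of 0.52. The count was between 7 and 12 whichever PND 42 array was left out. *Ctsk*, an acid protease that cleaves collagen, rose from 6.08, 5.91 and 5.97 to 9.38, 9.52 and 8.87, by 3.27 (SE 0.21, adjusted p = 3.87e-09). *Gpnmb*, a glycoprotein of phagocytes with a heavy lysosomal load, rose from 5.94, 5.54 and 5.60 to 8.55, 9.38 and 8.98, also by 3.27 (SE 0.38, adjusted p = 2.51e-05). *Cd68*, the lysosomal membrane protein used to stain macrophages, read 8.23, 7.75 and 8.0 in WT and 9.28, 10.11 and 9.67 in *Scnn1b*-Tg (difference 1.69, SE 0.24, adjusted p = 0.000353). In all 3 genes the lowest *Scnn1b*-Tg array lay above the highest WT array.

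Smaller rises were measured for enzymes. *Lipa*, the acid lipase that frees cholesterol from its esters, rose by 1.32 (SE 0.15, adjusted p = 2.74e-05). *Gla*, the α-galactosidase A of glycolipid breakdown, rose by 1.27 (SE 0.20, adjusted p = 0.000908). *Ctsd*, cathepsin D, read 11.59, 11.45 and 11.23 in WT against 12.52, 12.99 and 12.47, and rose by 1.24 (SE 0.14, adjusted p = 2.51e-05), but by 0.98, under 2-fold, after a repeated quantile normalization. *Mcoln3*, a cation channel of endosomes and lysosomes, rose by 1.62 (SE 0.19, adjusted p = 2.37e-05). *Ctss*, the cathepsin that trims the MHC class II chaperone, just missed 2-fold at 0.97 (SE 0.13, adjusted p = 0.000108). *Atp6v0d2*, a subunit of the proton pump, differed by 1.87 without overlap, but its SE was 0.53 and its adjusted p 0.111.

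Lipid genes were called only in small number. *Awat1*, an acyl transferase that makes wax esters, read 3.93, 3.74 and 3.66 in WT and 6.98, 8.02 and 5.05 in *Scnn1b*-Tg, where replicate 3 lay nearly 3 log2 below replicate 2. The mean rise was 2.90 (SE 0.40, adjusted p = 0.000221), and with the 6 PND 42 arrays alone it lost its call (adjusted p 0.0669). *Fasn*, fatty acid synthase, rose by 1.08 (adjusted p = 0.0202), a call lost without any of 4 arrays (highest adjusted p 0.146, without *Scnn1b*-Tg replicate 2). These were the 2 called genes of 30 for cholesterol and lipid synthesis, whose median was 0.27 with 26 upward, and *Dhcr7* (0.91) and *Acaca* (0.82) passed the p threshold under 2-fold. *Abcg1*, a cholesterol exporter, differed by 0.74 (adjusted p = 0.0483). *Fabp5*, a fatty acid carrier, has 2 or more probe sets that did not give the same call. One rose by 1.26 (adjusted p = 0.0207), a call lost without any of 3 arrays (highest adjusted p 0.143, without *Scnn1b*-Tg replicate 2), and the brightest, which stands for the gene in the lists, differed by 1.09 (adjusted p = 0.0578).

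**Figure D3:**
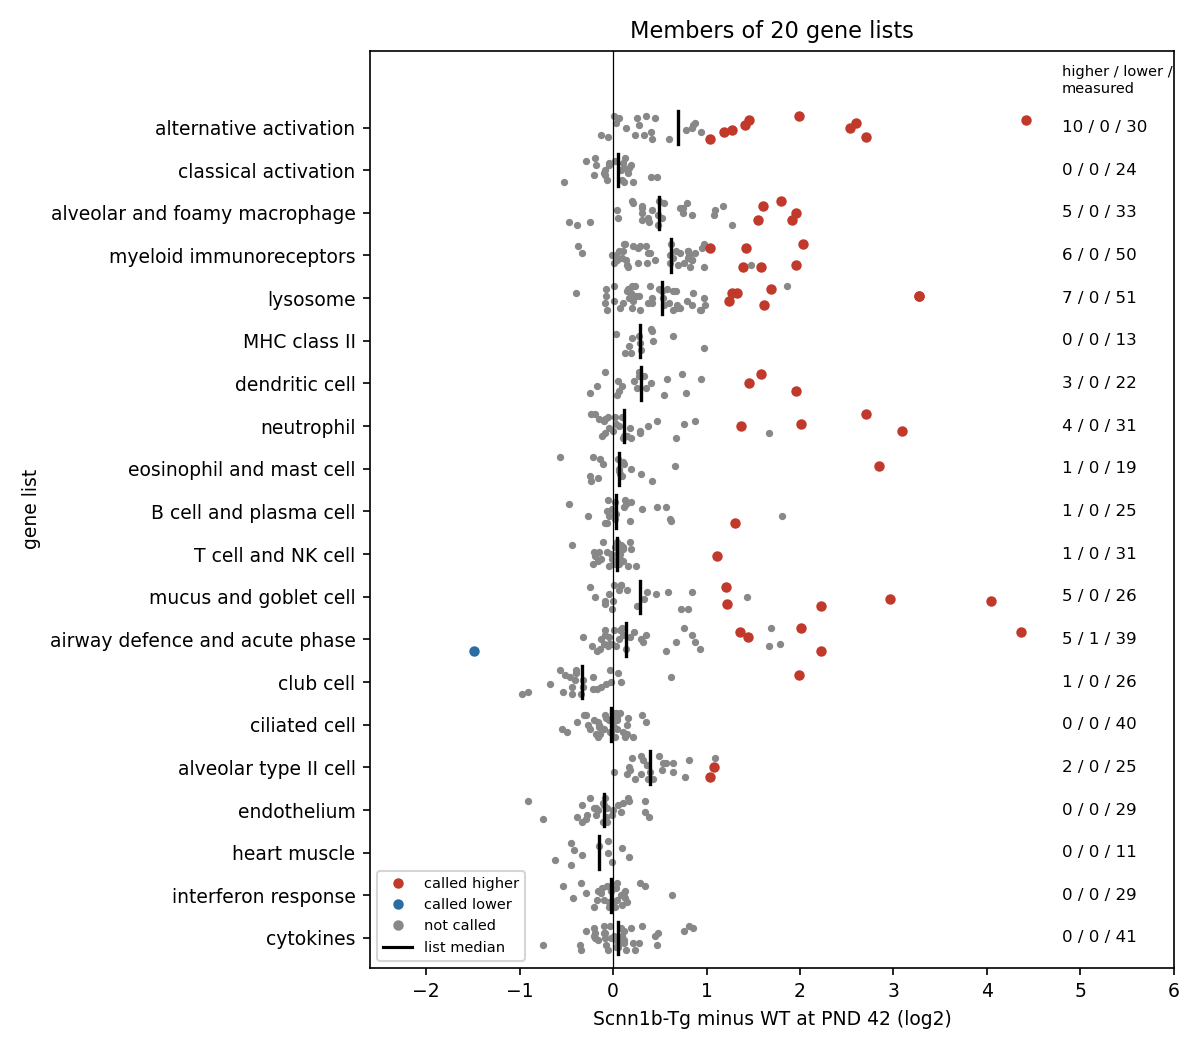
Difference between the genotypes at PND 42 (horizontal axis, log2) of each measured member of 20 gene lists (vertical axis), called members in red or blue, others in grey, and the list median as a black bar, with the numbers called higher, called lower and measured on the right. Alternative activation has its median at 0.69 with 10 of 30 called and club cells at -0.33 with 1 of 26.

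Receptors of myeloid cells, the lineage of macrophages, granulocytes and dendritic cells, were listed as a further group. Of 50 measured, 6 were called higher, 0 lower and 47 differed upward, with a median of 0.62. The count was 4 without *Scnn1b*-Tg replicate 2 and 8 without replicate 3. The inhibitory receptor *Lilrb4a* read 6.22, 5.58 and 6.15 in WT and 7.47, 8.58 and 7.98 in *Scnn1b*-Tg and rose by 2.03 (SE 0.35, adjusted p = 0.00303). Its neighbour and near copy *Lilr4b* on chromosome 10 rose by 1.59 (adjusted p = 0.0283), with a call lost without any of 4 arrays (highest adjusted p 0.164, without *Scnn1b*-Tg replicate 2). Probes of these 2 genes may read each other's transcripts. *Itgb2*, the β2 integrin chain of all leukocytes, rose by 1.42 (SE 0.23, adjusted p = 0.0016) and *Cd84*, an adhesion receptor, by 1.40 (SE 0.18, adjusted p = 0.000128). The kinase *Syk*, which acts below many of these receptors, differed by 0.98 (adjusted p = 0.00337) and *Cd200r4* by 0.98 (adjusted p = 0.00235), each just under 2-fold.

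Cytokine receptors added *Csf2rb* (1.32, adjusted p = 0.0256), the shared chain of the receptors for GM-CSF, interleukin 3 and interleukin 5, with *Il7r* (1.11, adjusted p = 0.00472) and *Tnfrsf26* (1.04, adjusted p = 0.0045). They were 3 of 28 measured. All 3 lost their call without *Scnn1b*-Tg replicate 2 (adjusted p 0.164, 0.0568 and 0.0546), which left 0, and *Csf2rb* and *Tnfrsf26* each lost it without 3 other arrays and *Il7r* without WT replicate 3. *Cybb*, the catalytic subunit of the phagocyte oxidase, rose by 1.15 (adjusted p = 0.0245), with a call lost without any of 3 arrays (highest adjusted p 0.168, without *Scnn1b*-Tg replicate 2). *Ly75*, the endocytic receptor DEC-205, rose by 1.58 (SE 0.19, adjusted p = 4e-05). With *Itgax* and *Mgl2* it made 3 called of 22 measured dendritic cell markers, median 0.30, and *Flt3*, the growth factor receptor of that lineage, differed by 0.54 (adjusted p = 0.0196). All 13 measured genes of MHC class II presentation differed upward, but 0 were called. Without WT replicate 1 or without *Scnn1b*-Tg replicate 1 the count was 1. *Ctss* and the invariant chain *Cd74* (0.65, adjusted p = 0.0305) passed the p threshold, and the median was 0.29.

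Genes known from neutrophils and the acute phase response were called with wide spread. *Saa3*, an acute phase protein made locally in lung, read 5.33, 5.37 and 4.92 in WT and 9.20, 10.96 and 8.55 in *Scnn1b*-Tg. Its 4.37 log2 (20.6-fold) was almost as large as that of *Chil4*, but with an SE of 1.00 its adjusted p was 0.038. This SE also holds the spread at other ages: the SD was 3.00 in WT at PND 3, against 0.25 in WT and 1.25 in *Scnn1b*-Tg at PND 42. The call was lost without any of 4 arrays (highest adjusted p 0.203, without *Scnn1b*-Tg replicate 2). *Lcn2*, an iron-binding defence protein, was at 9.65, 9.67 and 9.41 against 11.51, 12.16 and 11.08, a rise of 2.01 (SE 0.44, adjusted p = 0.0256), likewise lost without any of 4 arrays (highest adjusted p 0.154). *Reg3g*, a lectin that kills Gram-positive bacteria, read 9.52, 9.40 and 9.22 in WT and 10.71, 10.44 and 11.31 in *Scnn1b*-Tg (difference 1.44, SE 0.27, adjusted p = 0.00749). For *Reg3g* replicate 3 was highest and replicate 2 lowest, the reverse of *Saa3* and *Lcn2*. Its call was lost without any of 2 arrays (highest adjusted p 0.054, without *Scnn1b*-Tg replicate 3). With the 6 PND 42 arrays alone, *Saa3*, *Lcn2* and *Reg3g* kept their calls.

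*Cd177*, a surface protein of neutrophils that other cells also make, read 5.37, 5.18 and 4.72 in WT and 7.89, 8.31 and 8.36 in *Scnn1b*-Tg, 3.10 higher (SE 0.42, adjusted p = 0.000215). *Cxcr1*, a chemokine receptor, rose by 1.36 (SE 0.19, adjusted p = 0.000338) from a level near 4, a call lost with the 6 PND 42 arrays alone (adjusted p 0.0975). With *Lcn2* and *Chil3* these made 4 of 31 measured neutrophil markers called higher and 0 lower, median 0.11. The count was between 3 and 6 whichever array was left out. Of the 31, 22 differed upward and 9 did not exceed 5 on any of the 6 arrays, *Ly6g*, *Mpo* and *Elane* among them. Whether the number of neutrophils differed was not tested. The summed unlogged level of the list was 3286 to 4227 in WT and 12,334 to 21,198 in *Scnn1b*-Tg. Most of this sum came from *Chil3* and *Lcn2*, at 13.78 and 12.16 log2 in *Scnn1b*-Tg replicate 2, which other cells make as well. The sum therefore does not stand for the list as a whole. *Ltf*, lactoferrin, differed by 1.67 without overlap (adjusted p = 0.0583).

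*Rnase2a*, an eosinophil-associated ribonuclease that macrophages also make, rose steeply from 3.87, 3.72 and 3.88 to 6.06, 6.77 and 7.17 (difference 2.84, SE 0.21, adjusted p = 1.84e-08). It was the 1 called gene of 19 markers of eosinophils and mast cells, and the defining eosinophil genes *Epx* and *Ccr3* did not exceed 5 on any array. B and plasma cell markers gave 1 call of 25: the heavy chain *Igha* of immunoglobulin A, by 1.30 (SE 0.13, adjusted p = 4.5e-06) at its brightest probe set and 1.61 (adjusted p = 0.00137) at another. The light chain gene *Igkv10-96* read 5.74, 5.42 and 5.36 in WT and 7.42, 8.44 and 7.40 in *Scnn1b*-Tg, 2.25 higher (adjusted p = 0.0336), a call lost without any of 4 arrays (highest adjusted p 0.184, without *Scnn1b*-Tg replicate 2). *Jchain*, which joins immunoglobulin A into the form that *Pigr* carries, differed by 1.81 without overlap and did not pass (adjusted p = 0.0828). Of 31 T and NK cell markers only *Il7r* was called, and *Cd3e* stayed below 5 on every array.

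Chemokines, the attractants of leukocytes, were called in 3 of 36 measured ligands, all higher. The count was between 2 and 4 whichever array was left out, and without *Scnn1b*-Tg replicate 1 there was also 1 lower. *Ccl9* read 6.66, 6.71 and 6.59 in WT and 8.28, 9.15 and 8.69 in *Scnn1b*-Tg, 2.05 higher (SE 0.32, adjusted p = 0.000908). Its neighbour on chromosome 11, *Ccl6*, read 9.90, 9.63 and 9.76 against 11.59, 12.22 and 11.21 and rose by 1.91 (SE 0.34, adjusted p = 0.00397), a call lost without *Scnn1b*-Tg replicate 2 (adjusted p 0.0517). *Ccl24* was the third. *Ccl3*, known as MIP-1α, read 5.32, 4.96 and 5.02 in WT and 7.40, 8.48 and 7.39 in *Scnn1b*-Tg. At 2.66 it differed more than *Ccl9*, yet with an SE of 0.65 it narrowly missed the threshold (adjusted p = 0.053). *Ccl8* differed by 0.99 (adjusted p = 0.000273) and *Cxcl12* by 0.57 (adjusted p = 0.0372). Of 41 cytokine genes 0 were called, beside 0.361% of all genes, with a median of 0.05. Without WT replicate 2 there was 1 called lower. *Il4* and *Il13* did not exceed 5 on any array, and *Ifng* did not either. The interferon response list gave 0 of 29, median -0.02.

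Enzymes of lipid mediators and amino acids accounted for further rises. *Tbxas1*, thromboxane synthase, rose by 1.33 (SE 0.17, adjusted p = 8.19e-05), and *Ptgir*, the prostacyclin receptor, by 1.01 (adjusted p = 0.00233), under 2-fold without any of 3 arrays (0.84 without *Scnn1b*-Tg replicate 2). *Kynu*, kynureninase of tryptophan breakdown, rose by 1.26 (SE 0.18, adjusted p = 0.000278) and joined *Arg1* and *Slc7a2* as 3 called of 19 genes of arginine and tryptophan metabolism. *F7*, coagulation factor VII, rose by 1.36 (SE 0.22, adjusted p = 0.00137), and *Hc*, complement component C5, by 1.03 (adjusted p = 0.00461), the latter lost without any of 4 arrays (highest adjusted p 0.0546). *Hc* was the 1 called gene of 30 for complement.

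Of the 70 genes called higher, 60 were in a list and 10 in none. The lists were written with earlier results of these data known, so that this count was partly set by their choice. The share of all tested genes that stand in a list was not counted. Largest of the 10 was *A2ml1*, a protease inhibitor of the α2-macroglobulin family, which went from 5.19, 4.74 and 4.60 to 7.10, 7.29 and 8.32 (difference 2.72, SE 0.27, adjusted p = 2.73e-06). *Slc39a2*, a zinc importer, read 6.05, 6.46 and 5.66 in WT and 8.11, 8.14 and 7.16 in *Scnn1b*-Tg, 1.75 higher (adjusted p = 0.00455), a call lost without *Scnn1b*-Tg replicate 2 (adjusted p 0.0517). *Lrp12* of the lipoprotein receptor family rose 2.83-fold, with the smallest SE of the called genes, 0.11 (adjusted p = 3.47e-08), from 5.65, 5.55 and 5.76 to 6.94, 7.39 and 7.13. Aminopeptidase N, *Anpep*, rose by 1.42 (adjusted p = 0.00738), with a call lost without any of 2 arrays (highest adjusted p 0.0655), and *Fnip2*, a partner of folliculin, by 1.15 (adjusted p = 0.00162). *Lrp2* or megalin (1.02), *Slc15a3* (1.03), a lysosomal peptide carrier, and the myosin *Myo1f* (1.01) sat just past 2-fold, and each lost its call without any of 4 or 5 arrays (highest adjusted p 0.224, 0.216 and 0.207, each without *Scnn1b*-Tg replicate 2).

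Just outside the threshold, 107 probe sets were higher and 17 lower with an adjusted p of at most 0.05 and under 2-fold. Together with the called ones this made 178 higher (0.817%) and 20 lower (0.0918%) with no fold threshold.

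The 3 genes that fell are all known from epithelia, but not from epithelia alone. The paper also lists *Fabp1* in purified lung macrophages, where it was lower in *Scnn1b*-Tg at PND 3. *Bpifa1*, the secreted airway protein SPLUNC1, which binds the epithelial sodium channel in human and mouse airway and limits its activity, read 9.78, 10.27 and 9.70 in WT and 8.31, 7.55 and 9.42 in *Scnn1b*-Tg. Its fall of 1.49 log2 (2.82-fold, SE 0.32, adjusted p = 0.025) rested on replicates 1 and 2, since replicate 3 lay only 0.28 below the lowest WT array, and the call was lost without any of 5 arrays (highest adjusted p 0.168, without *Scnn1b*-Tg replicate 2). *Sult1d1*, a sulfotransferase, went from 7.41, 6.59 and 6.77 to 5.74, 5.22 and 6.21, a change of -1.20 (SE 0.20, adjusted p = 0.00192), and fell under 2-fold without *Scnn1b*-Tg replicate 2 (-0.95) or without WT replicate 1. *Fabp1*, a fatty acid carrier best known from liver and gut, went from 5.63, 5.49 and 5.67 to 4.33, 4.56 and 4.87 (-1.01, SE 0.15, adjusted p = 0.000833), under 2-fold without any of 4 arrays (-0.88 without *Scnn1b*-Tg replicate 1). Leaving out *Scnn1b*-Tg replicate 2 gave 0 lower calls, leaving out *Scnn1b*-Tg replicate 1 gave 6, and leaving out WT replicate 2 gave 8. With the 6 PND 42 arrays alone, *Bpifa1* and *Sult1d1* lost their calls.

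Of 26 measured markers of club cells 4 differed upward, the median was -0.33, and it stayed between -0.38 and -0.28 without any single PND 42 array, but 0 were called lower and *Retnla* was called higher. Without WT replicate 2 or without WT replicate 3 there was 1 called lower and 0 higher. Nearest to a call was *Scgb1c1*, a secretoglobin, at 8.32, 7.50 and 7.69 in WT and a narrow 6.88, 6.88 and 6.82 in *Scnn1b*-Tg (-0.98, SE 0.19, adjusted p = 0.00749). *Cyp4b1*, a cytochrome P450 of club cells, differed by -0.68 (adjusted p = 0.0591). *Cckar*, the cholecystokinin receptor, stands in no list and differed by -0.94 (SE 0.17, adjusted p = 0.00417).

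Other resident cells gave few calls, beside 0.361% of all genes called either way. Ciliated cells, which move mucus, had 0 of 40 called and a median of -0.03, with *Tekt1*, a protein of the ciliary shaft, at -0.55 (adjusted p = 0.016) and its groups apart. All 25 measured markers of alveolar type II cells, the source of surfactant, differed upward with a median of 0.39, and *Fasn* and *Hc* were called among them. Without *Scnn1b*-Tg replicate 2 the count was 0. Type I cells had 0 of 18 (median -0.02), endothelium 0 of 29 (median -0.10, *Lyve1* at -0.91 with adjusted p = 0.0686) and mitosis 0 of 39 (median 0.06). Matrix and fibroblast genes gave 1 of 51, *Fn1*, while *Des* of smooth muscle differed by -0.78 (adjusted p = 0.0271). Tissue that may be taken with a lobe showed 0 calls: 11 heart muscle genes had a median of -0.15, 9 adipose genes -0.07 and 8 thymus genes -0.07.

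Within the *Scnn1b*-Tg group the arrays kept an order for many genes. Replicate 2 was the highest in 58 of the 71 higher probe sets, replicate 3 in 12 and replicate 1 in 1. The lowest was replicate 1 in 38, replicate 3 in 29 and replicate 2 in 4. Median SDs of the 71 were 0.41 among *Scnn1b*-Tg and 0.20 among WT arrays, and the *Scnn1b*-Tg SD was the larger in 59 of them, compared with 60.5% of all probe sets. *Ccl24*, *A2ml1*, *Rnase2a*, *Reg3g*, *Muc5ac* and *Clca1* were among those highest in replicate 3, and *Chil4* was highest in replicate 1. Whether this spread comes from the animals, the pooling or the RNA was not tested.

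**Figure D4:**
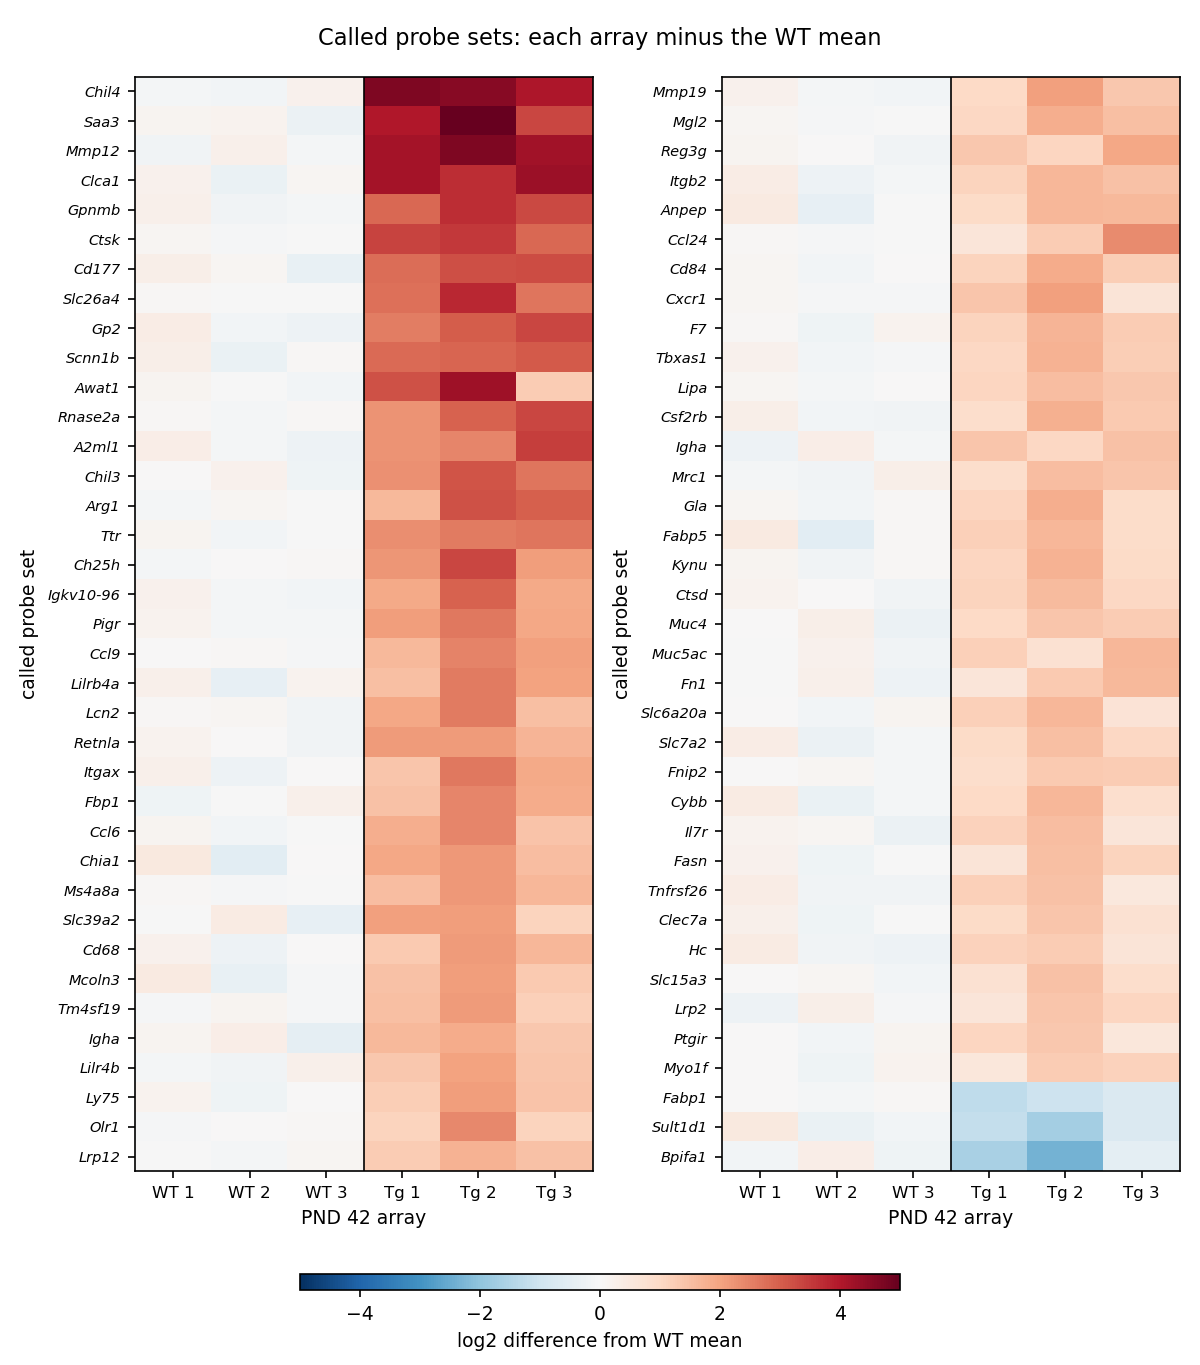
Heat map of the 74 called probe sets (rows, ordered by difference from the top of the left panel to the bottom of the right) in the 6 PND 42 arrays (columns), coloured by the level minus the WT mean (log2, red higher, blue lower). *Scnn1b*-Tg replicate 2 is the reddest column in 58 of the 71 higher rows, and the 3 blue rows at the end are *Fabp1*, *Sult1d1* and *Bpifa1*.

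Each of the 6 arrays was left out in turn, and the calls lost were counted. A group of 2 arrays has a less precise mean, so that a lost call need not rest on the array left out. Without *Scnn1b*-Tg replicate 2, 45 probe sets were called higher and 30 of the 74 calls were lost, among them those of *Saa3*, *Lcn2*, *Retnla*, *Ccl6* and the 3 cytokine receptors. Without *Scnn1b*-Tg replicate 1, 107 were higher and 6 calls were lost, and without replicate 3, 77 and 10. Without WT replicates 1, 2 and 3, 66, 53 and 59 were higher, and 14, 20 and 23 of the 74 calls were lost. In all, 42 of the 74 were called whichever array was left out, and 39 in each of 19 alternative analyses that held the probe set. Among the 39 were *Chil4*, *Mmp12*, *Clca1*, *Gpnmb*, *Ctsk*, *Cd177*, *Slc26a4*, *Gp2*, *Scnn1b*, *Rnase2a*, *A2ml1*, *Chil3*, *Arg1*, *Ch25h*, *Pigr*, *Itgax*, *Cd68* and *Lrp12*. The direction of the 74 differences did not turn in any of them.

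At the earlier ages few of these genes were called, and some ran the other way. The same test called 33 probe sets at PND 10 (0.151%), 23 higher (0.106%) and 10 lower (0.0459%). It called 4 at PND 3 (0.0184%), of which 2 were higher and 2 lower (0.00918% each), and 3 at PND 0, all higher (0.0138%). Of the 74, 12 were called at PND 10, which is 16.2% of the PND 42 calls and 36.4% of the PND 10 calls. In 9 the direction was the same: *Mmp12*, *Gpnmb*, *Ctsk*, *Cd177*, *Scnn1b*, *Ttr*, *Pigr*, *Cd68* and *Mcoln3*. In 3, *Clca1*, *Chil4* and *Muc5ac*, it was the opposite. At PND 3 and at PND 0 the calls shared with PND 42 numbered 2 each. Among the 71 higher probe sets the median difference was -0.04 at PND 0, 0.06 at PND 3 and 0.45 at PND 10.

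*Clca1* showed the sharpest turn. Its WT mean was 4.06 at PND 0, 4.30 at PND 3, 10.17 ± 0.37 (SD, n = 3) at PND 10 and 7.06 ± 0.30 at PND 42, whereas *Scnn1b*-Tg means were 4.17, 4.37, 7.69 ± 0.42 and 11.11 ± 0.31. The genotype difference was thus -2.47 at PND 10 (adjusted p = 1.88e-06) and 4.05 at PND 42, and the change between these ages, tested as an interaction, was 6.52 (SE 0.31, adjusted p = 1.85e-11). *Chil4* followed the same course with WT means of 8.53 ± 1.06 at PND 10 and 5.59 ± 0.18 at PND 42 against 6.71 ± 0.45 and 10.01 ± 0.33 in *Scnn1b*-Tg. For *Chil4* the interaction was 6.23 (SE 0.45, adjusted p = 4.75e-08). WT levels of both genes peaked at PND 10 and were lower at PND 42, while *Scnn1b*-Tg levels were higher at PND 42 than at PND 10. *Muc5ac* had WT means of 6.13 at PND 10 and 4.84 at PND 42 and *Scnn1b*-Tg means of 5.05 and 6.05.

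*Mmp12* grew instead from a difference of 1.98 at PND 10 to 4.34 at PND 42 (interaction 2.36, SE 0.39, adjusted p = 0.00608). *Gpnmb* differed by 2.27 and 3.27 at these ages and *Cd177* by 2.76 and 3.10, and their interactions, 1.01 and 0.34, did not pass the test. For *Scnn1b* the differences were 3.22 and 2.93, and the interaction of -0.29 did not pass either. *Rnase2a* and *Slc26a4* were below WT by 0.58 and 0.82 at PND 10, without a call at that age, and their interactions were 3.43 (adjusted p = 6.32e-07) and 3.90 (adjusted p = 1.56e-06). Over all probe sets 42 had a positive (0.193%) and 7 a negative (0.0321%) interaction call (0.225% together), and these counts moved widely when single arrays were left out.

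**Figure D5:**
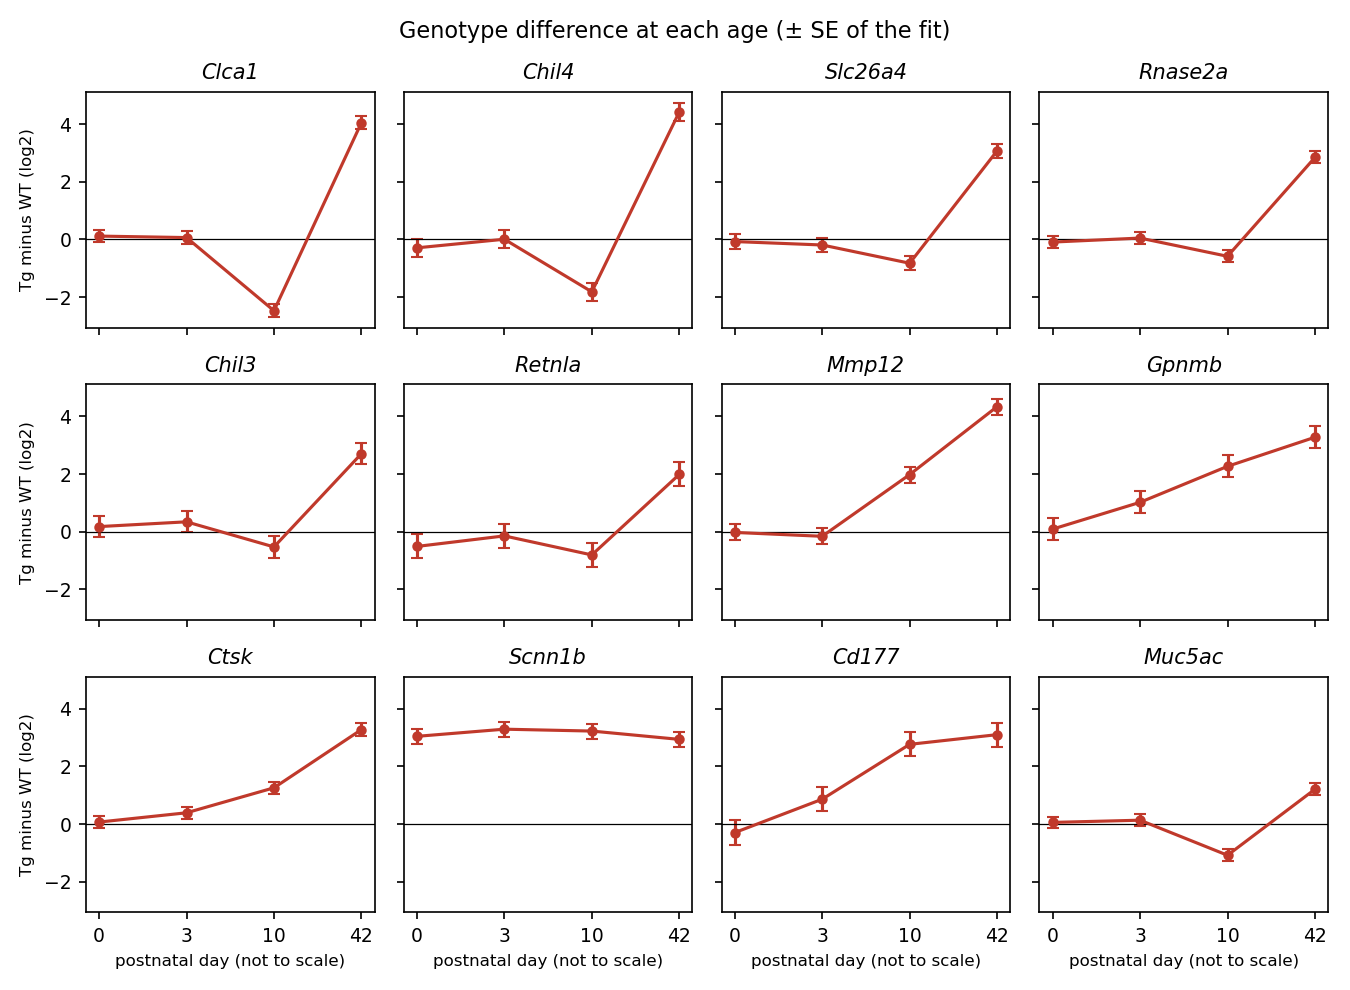
Genotype difference (vertical axis, log2, *Scnn1b*-Tg minus WT, points with the SE of the fit) at PND 0, 3, 10 and 42 (horizontal axis, not to scale) for 12 genes called at PND 42. *Clca1*, *Chil4* and *Muc5ac* lie below 0 at PND 10 and above it at PND 42, *Mmp12*, *Gpnmb* and *Ctsk* are larger at PND 42 than at PND 10, and *Scnn1b* stays between 2.93 and 3.29.

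Promoter sequence was read as a property that the choice of samples did not use. Windows from 250 bases before the start site to 50 after it were taken from RefSeq on build GRCm38.p6, 1 window a gene. A window was found for 52 of the 70 genes called higher and for 15,614 of the 19,938 genes tested. The motifs searched on both strands were the STAT6-type palindrome, TTC and GAA with 4 free bases between, which the factor below interleukin 4 and interleukin 13 can bind, GAGGAAGT, which PU.1 of myeloid cells can bind, and TGANTCA, a site type of AP-1 factors. The STAT6-type palindrome stood in 6 of the 52 windows (11.5%) and in 6.23% of all windows, namely those of *Awat1*, *Clec7a*, *Itgax*, *Lcn2*, *Retnla* and *Tbxas1*. GAGGAAGT stood in 5 (9.62%, 2.73% of all), those of *Fbp1*, *Gla*, *Mcoln3*, *Mmp12* and *Retnla*. TGANTCA stood in 9 (17.3%, 6.98% of all), which were those of *Ccl9*, *Cd68*, *Cd84*, *Cybb*, *Gpnmb*, *Itgax*, *Ms4a8a*, *Olr1* and *Tbxas1*. No test was made of these shares, and 52 windows are few. Of the 3 genes that fell, *Bpifa1* held TGANTCA.

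The 250 bases before the start site of 4 macrophage genes are shown, 5′ to 3′ on the strand of the gene, because together they hold each of the motifs. *Retnla* lies at chr16:48842359-48842608 on the plus strand and has its match to the STAT6-type palindrome in capitals. *Mmp12*, at chr9:7344147-7344396 on the plus strand, has the reverse complement of GAGGAAGT in capitals, in the first of 2 listed windows. *Cd68*, at chr11:69666171-69666420 on the minus strand, has 2 matches to TGANTCA in capitals. *Itgax*, at chr7:128129300-128129549 on the plus strand, has 1 of the same.
Retnla: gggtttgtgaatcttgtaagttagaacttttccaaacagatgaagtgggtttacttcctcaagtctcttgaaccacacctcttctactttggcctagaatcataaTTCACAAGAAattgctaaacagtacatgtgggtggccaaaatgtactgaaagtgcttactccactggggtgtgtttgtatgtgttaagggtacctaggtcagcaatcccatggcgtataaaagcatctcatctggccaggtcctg
Mmp12: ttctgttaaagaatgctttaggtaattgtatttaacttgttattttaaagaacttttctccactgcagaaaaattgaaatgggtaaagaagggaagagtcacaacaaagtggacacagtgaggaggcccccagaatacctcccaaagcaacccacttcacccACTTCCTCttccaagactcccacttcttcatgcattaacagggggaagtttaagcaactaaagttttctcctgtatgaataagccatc
Cd68: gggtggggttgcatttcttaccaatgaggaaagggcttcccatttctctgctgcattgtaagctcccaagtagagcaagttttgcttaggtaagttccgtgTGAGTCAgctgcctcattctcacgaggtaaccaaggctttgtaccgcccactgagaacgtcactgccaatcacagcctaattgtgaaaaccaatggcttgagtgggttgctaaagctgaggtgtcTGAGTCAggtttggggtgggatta
Itgax: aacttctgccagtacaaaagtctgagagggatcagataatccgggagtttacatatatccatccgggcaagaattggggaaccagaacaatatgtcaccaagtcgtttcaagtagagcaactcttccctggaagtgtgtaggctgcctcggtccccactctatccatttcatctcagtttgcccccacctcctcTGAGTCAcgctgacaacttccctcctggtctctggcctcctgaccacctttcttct

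The windows of *Chil3* and *Chil4* held none of the 3 motifs. Aligned end to end with gaps, they were identical in 252 of 329 columns (76.6%), which shows how alike the neighbouring copies are upstream of their transcripts as well. A match is a string of letters and not a measured binding site, and an absent one says only that the letters do not occur in this window.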

How the data were processed

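Gene-level Affymetrix arrays (Mouse Gene ST) measured whole-lung RNA, 3 for each of 8 groups of genotype and age. The authors deposited log2 values, made in Partek (version 6.5 per the labels) with the RMA method and its quantile step, 1 for each of 35,556 probe sets and array. RMA borrows across arrays and compresses low signals, so that changes of dim genes can be understated. Of these, 21,789 name exactly 1 gene, 1,621 several and 12,146 none, and only the first were tested. No new normalization was applied, and 0 columns of values were left unused. Gene names come from the platform annotation, and 21,698 of the gene identifiers occur in the reference gene table.

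R 4.3.3 with limma 3.58.1 fitted 8 group means to all 24 arrays (lmFit, then eBayes), which leaves 16 degrees of freedom for the error. The contrasts were *Scnn1b*-Tg minus WT at each age and the PND 42 difference minus that at PND 10, with Benjamini-Hochberg adjustment over the 21,789 probe sets of a contrast. A gene with several probe sets is read from the one with the highest mean over the 24 arrays. With 3 against 3 arrays an exact permutation test cannot go below p = 0.1, so none was used. The fit was run on simulated data in which a probe set had the same spread in all groups. That run therefore does not speak to genes with a wider spread in *Scnn1b*-Tg at PND 42.

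The comparison, its genes and the 40 gene lists were chosen with earlier results of these data known. Array values are given for up to 40 of the largest called changes and every gene that fell, and up to 6 members of lowest p are named from a list. *Muc5b*, *Marco*, *Atp6v0d2*, *Cckar*, the genes named as not above 5, and *Adgre1*, *Siglecf*, *Spdef*, *Scnn1a*, *Scnn1g* and *Il1b* were named after their values were seen. Alternatives were other limma settings, other sets of arrays and rows, a replicate block, another normalization, other fold thresholds and each array left out. List counts without each array were added after the data were seen.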

Additional observations from a re-analysis of the deposited data

Results flagged for a closer look

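For 8 genes the genotype difference at PND 42 was set against that at PND 10. They have the largest values among genes called as an interaction, so that passing the test of the change was how they were chosen. *Clca1* changed by 6.52 and *Chil4* by 6.23, and in both a lower level in *Scnn1b*-Tg lungs at PND 10 (-2.47 and -1.82) was followed by a higher one at PND 42 (4.05 and 4.42). *Slc26a4* changed by 3.90 and *Rnase2a* by 3.43, *Chil3* by 3.23 and *Retnla* by 2.79, each from a difference below 0 that was not called at PND 10. *Awat1* changed by 2.90 from 0.01, and *Mmp12* by 2.36 from 1.98, where it was already called higher. *Clca1*, *Chil4*, *Slc26a4* and *Rnase2a* kept the interaction call in each of 24 alternatives. *Chil3* and *Mmp12* lost it in 1 each, *Awat1* in 11 (highest adjusted p 0.116) and *Retnla* in 15 (highest adjusted p 0.143), among them without 7 and without 10 of the 12 single arrays.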

How the results depend on the processing

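At PND 42 the 71 higher and 3 lower calls became 59 and 1 with the 6 arrays of that age alone, 151 and 12 at 1.5-fold and 178 and 20 with no fold threshold. With the 6 arrays alone 20 of the 74 calls were lost. Among them were those of *Muc5ac*, *Slc6a20a*, *Fasn*, *Fn1*, *Il7r*, *Hc*, *Bpifa1* and *Sult1d1*. A replicate block over 24 arrays gave 75 and 3, and over the 6 arrays 72 and 3. Deviations of arrays with the same replicate number correlated at -0.115, -0.127 and 0.272 at PND 42, at 0.299, 0.153 and 0.29 at PND 0, and between -0.255 and 0.149 at PND 3 and PND 10. Since the correlations at PND 42 were not all above 0.1, the numbers were not taken to pair the samples compared. Leaving out 1 of the 6 arrays gave 45 (without *Scnn1b*-Tg replicate 2) to 107 higher calls and 0 to 8 lower. For the interaction, 42 positive and 7 negative calls became 15 and 0 without moderation of the variances, 20 and 1 over all 35,556 deposited probe sets, and 73 positive with the 12 arrays of PND 10 and PND 42 alone. Negative calls were 12 after a repeated quantile normalization and 14 at 1.5-fold or with no fold threshold, and a replicate block gave 49 and 6. Leaving out 1 of the 12 arrays gave 19 (without *Scnn1b*-Tg PND 42 replicate 2) to 85 (without replicate 1) positive and 0 to 14 negative calls. The causes were not tested. Other settings stayed within 1.5 times of these counts, and no difference reversed. With 3 arrays a group, differences under 2-fold and genes near the floor of the array are resolved poorly.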
